A study of Mus musculus with 15 samples.

Results

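The genes described here code for the proteins of the mitochondrial ribosome. They were taken as every entry of the expression table whose symbol is *Mrpl* or *Mrps* followed by a number, with a mean of at least 1 FPKM over the 15 samples. FPKM is the number of sequenced fragments scaled to the length of the transcript and to the depth of the sample. All 77 entries with such a symbol passed this minimum, out of 20089 complete entries in the table. The samples were bone marrow-derived macrophages (BMDMs) of wild-type C57BL/6 mice, all of them kept in macrophage colony-stimulating factor (M-CSF). They form 5 groups of 3. Control cells received M-CSF alone, and the other groups received in addition receptor activator of NF-κB ligand (RANKL), which drives BMDMs to become bone-resorbing osteoclasts, or lipopolysaccharide (LPS), a bacterial wall component that sets off inflammatory activation, each for 4 hours (RANKL 4 h, LPS 4 h) or 3 days (RANKL 3 d, LPS 3 d). The labels name no M-CSF control kept for the further 3 days, so the length of stimulation and the length of culture cannot be told apart in the 3 d groups. The labels number the replicates but do not say whether they came from separate mice, so the p-values measure the spread between these samples, which may be technical.

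As background, the mitochondrial ribosome sits in the mitochondrial matrix, close to the inner membrane, and translates the few messages of the mitochondrial genome, which code for core subunits of the respiratory chain and of ATP synthase. Its RNAs come from the mitochondrial genome, whereas every one of its proteins is encoded in the nucleus, made in the cytosol and imported. The large subunit joins amino acids at the peptidyl transferase centre, and the small subunit reads the message at the decoding centre. Some of the proteins have bacterial homologs and others exist only in mitochondria. Osteoclasts are rich in mitochondria, and macrophages activated by LPS are known to shift their energy metabolism toward glycolysis.

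By these roles the 77 members fall into 50 proteins of the large subunit, 26 of the small subunit and *Mrps36*, which keeps the name but is now known as a subunit of the oxoglutarate dehydrogenase complex. *Mrps30* and *Mrps18a* are counted with the large subunit, where their proteins sit despite the symbol. Of the large subunit members 29 have a bacterial homolog and 21 are specific to mitochondria, and of the small subunit members 16 and 10.

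Recovered from the FPKM values, the depth was 18306184 to 20330207 fragments per sample, and the members held between 59 and 2021 fragments each in any sample, so counting error is small for most of them. The markers of macrophages were present in every sample, with summed levels of 6 genes (*Csf1r*, *Adgre1*, *Cd68*, *Itgam*, *Fcgr1*, *Mertk*) between 1793 and 3351 FPKM, and the 9 osteoclast markers all rose in RANKL 3 d. One library of LPS 3 d, replicate 3, stood apart from the other 2 of its group. Its 12 stromal markers (collagens, *Dcn*, *Postn* and others) summed to 545 FPKM against 122 and 145, and its macrophage markers to 3351 against 2085 and 2353. Stromal markers also varied in RANKL 3 d, at 2133, 950 and 464 FPKM for replicates 1, 2 and 3, against 172 to 354 in control. For LPS 3 d the counts of members called are given also without replicate 3. So are the changes against control of the called members given with values, and most counts of the other lists. The remaining values use all 3 libraries, among them centred counts and the changes of members not called. In bulk samples, fewer cells of a type and less RNA per cell cannot be told apart.

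The members lie on 17 chromosomes, with the most, 10, on chromosome 11 (GENCODE M21 on GRCm38). Their genes are short, with a median span of 7894 bases against 23306.5 bases for the tested protein-coding genes. Exon bases are shared with another annotated gene in 32 members (8 on the same strand), and the overlap is named below only for some. Of the 77, 18 (23.4%) have the start of another protein-coding gene within 1000 bases upstream on the opposite strand, against 10.2% of tested genes, among them *Mrpl32* with the proteasome gene *Psma2* at 75 bases and *Mrps12* with the seryl-tRNA synthetase gene *Sars2* at 172 bases. RefSeq promoter entries (GRCm38.p6, 250 bases before to 50 after the start) were found for 68 members. They were searched on both strands for the letters GCATGCGC, the core site of NRF1, CCGGAAG, an ETS site of the kind that GABPA binds, and AAGATGGC, the core site of YY1, which are factors known for nuclear genes of mitochondrial proteins. The ETS letters end and the YY1 letters begin with AAG, but in no member did both share these bases. The NRF1 letters were present in 8 of 68 members (11.8%), against 5.6% of tested genes and 3.9% of all protein-coding genes. The ETS letters were in 25 members (36.8%), against 19.2% and 12.9%. The YY1 letters were in 12 members (17.6%), against 5.0% and 3.6%, and in 8 of those 12 they reached into the 50 bases after the start. Any of the 3 was present in 37 of 68 members (54.4%), against 27.0% of tested and 18.7% of all protein-coding genes. For the other letters the shares are those of members, of tested genes and of all genes, in that order. CACGTG (E-box) was in 7.4%, 11.5% and 8.9%, CCAAT in 39.7%, 42.6% and 42.3%, and TATAAA in 7.4%, 9.1% and 14.8%. GGGGCGGGG (GC box) was in 19.1%, 24.3% and 17.3%, ACTACAA (ZNF143) in 7.4%, 4.7% and 4.2%, and TGACGTCA (cyclic AMP response element) in 2.9%, 3.4% and 2.5%. A match describes these letters in this window and is not a measured binding site.

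Upstream stretches of 7 members are shown, each from the part of the RefSeq window before the start that no annotated exon touches, 5′ to 3′ in the direction of the gene, with NRF1 and ETS letters in capitals. The first 4 carry such letters, and the other 3 belong to members on which the results below turn and carry none in the whole window. *Mrpl22* (chr11:58171541-58171660 on the plus strand) holds ETS and NRF1 letters, *Mrpl43* (chr19:45006443-45006557 on the minus strand) a pair of ETS matches, *Mrpl9* (chr3:94443198-94443317 on the plus strand) NRF1 letters and *Mrpl52* (chr14:54426789-54426908 on the plus strand), the most abundant member, ETS letters. *Mrps6* (chr16:92058150-92058269 on the plus strand), *Mrpl41* (chr2:24975099-24975218 on the minus strand) and *Mrpl45* (chr11:97315596-97315715 on the plus strand) are the members with the largest change in RANKL 3 d, LPS 4 h and LPS 3 d upward, in that order.
Mrpl22: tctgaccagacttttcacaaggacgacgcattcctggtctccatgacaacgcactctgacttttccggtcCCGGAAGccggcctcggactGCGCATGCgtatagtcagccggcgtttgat
Mrpl43: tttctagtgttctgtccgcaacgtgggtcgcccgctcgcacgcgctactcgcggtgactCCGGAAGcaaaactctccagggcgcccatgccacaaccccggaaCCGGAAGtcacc
Mrpl9: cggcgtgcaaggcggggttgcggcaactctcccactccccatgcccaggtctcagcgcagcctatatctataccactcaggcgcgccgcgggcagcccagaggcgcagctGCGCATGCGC
Mrpl52: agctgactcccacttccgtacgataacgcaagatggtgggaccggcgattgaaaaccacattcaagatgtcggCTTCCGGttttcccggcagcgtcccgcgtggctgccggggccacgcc
Mrps6: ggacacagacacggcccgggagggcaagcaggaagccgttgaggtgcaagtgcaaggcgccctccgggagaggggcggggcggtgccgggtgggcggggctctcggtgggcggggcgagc
Mrpl41: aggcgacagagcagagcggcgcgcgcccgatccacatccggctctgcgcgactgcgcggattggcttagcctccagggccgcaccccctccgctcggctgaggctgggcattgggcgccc
Mrpl45: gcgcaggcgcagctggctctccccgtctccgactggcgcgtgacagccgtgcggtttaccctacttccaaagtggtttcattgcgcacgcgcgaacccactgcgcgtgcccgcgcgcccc

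The members differed widely in level. Over all 15 samples the mean ranged from 3.98 FPKM for *Mrps25*, a small subunit protein specific to mitochondria, to 85.0 FPKM for *Mrpl52*, a large subunit protein, with a median over members of 19.4 FPKM. Next to *Mrps25* the lowest were *Mrpl15* and *Mrpl1*, at 5.36 ± 0.134 and 5.74 ± 0.529 FPKM in control (SD, n = 3). Next to *Mrpl52* the highest by the mean over all samples were *Mrps21* and *Mrpl33*, at 67.2 ± 10.9 and 70.5 ± 4.44 FPKM in control. The highest member in control alone was *Mrps18c*, at 71.0 ± 8.20 FPKM. *Mrpl52* itself stood at 67.2 ± 14.3 FPKM in control, so these genes did not differ beyond their spread there.

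Summed over the 77 members, the level was 1954, 1968 and 1799 FPKM in the control samples. It was 2062, 1919 and 1730 in RANKL 4 h and 1816, 2030 and 2231 in RANKL 3 d. In LPS 4 h it was 1386, 1289 and 1189, below every other sample of the study, and in LPS 3 d 2423, 2213 and 1911. As a share of the fragments on listed genes this was 0.248% ± 0.0119 in control, 0.163% ± 0.00936 in LPS 4 h and 0.282% ± 0.0410 in LPS 3 d (SD, n = 3). The mean was lowest in LPS 4 h for 72 of the 77 members, as it was for 59.8% of all tested genes, and highest in LPS 3 d for 43 and in RANKL 3 d for 24, against 29.6% and 39.9% of tested genes. When LPS 3 d replicate 3 was left out it was highest in LPS 3 d for 49 and in RANKL 3 d for 21, against 34.4% and 38.0% of tested genes. Large subunit members summed to 2.01 to 2.02 times the small subunit members in control and to 2.12 to 2.26 times in LPS 4 h. The heat map of the members shows this pattern sample by sample.

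**Figure D1:**
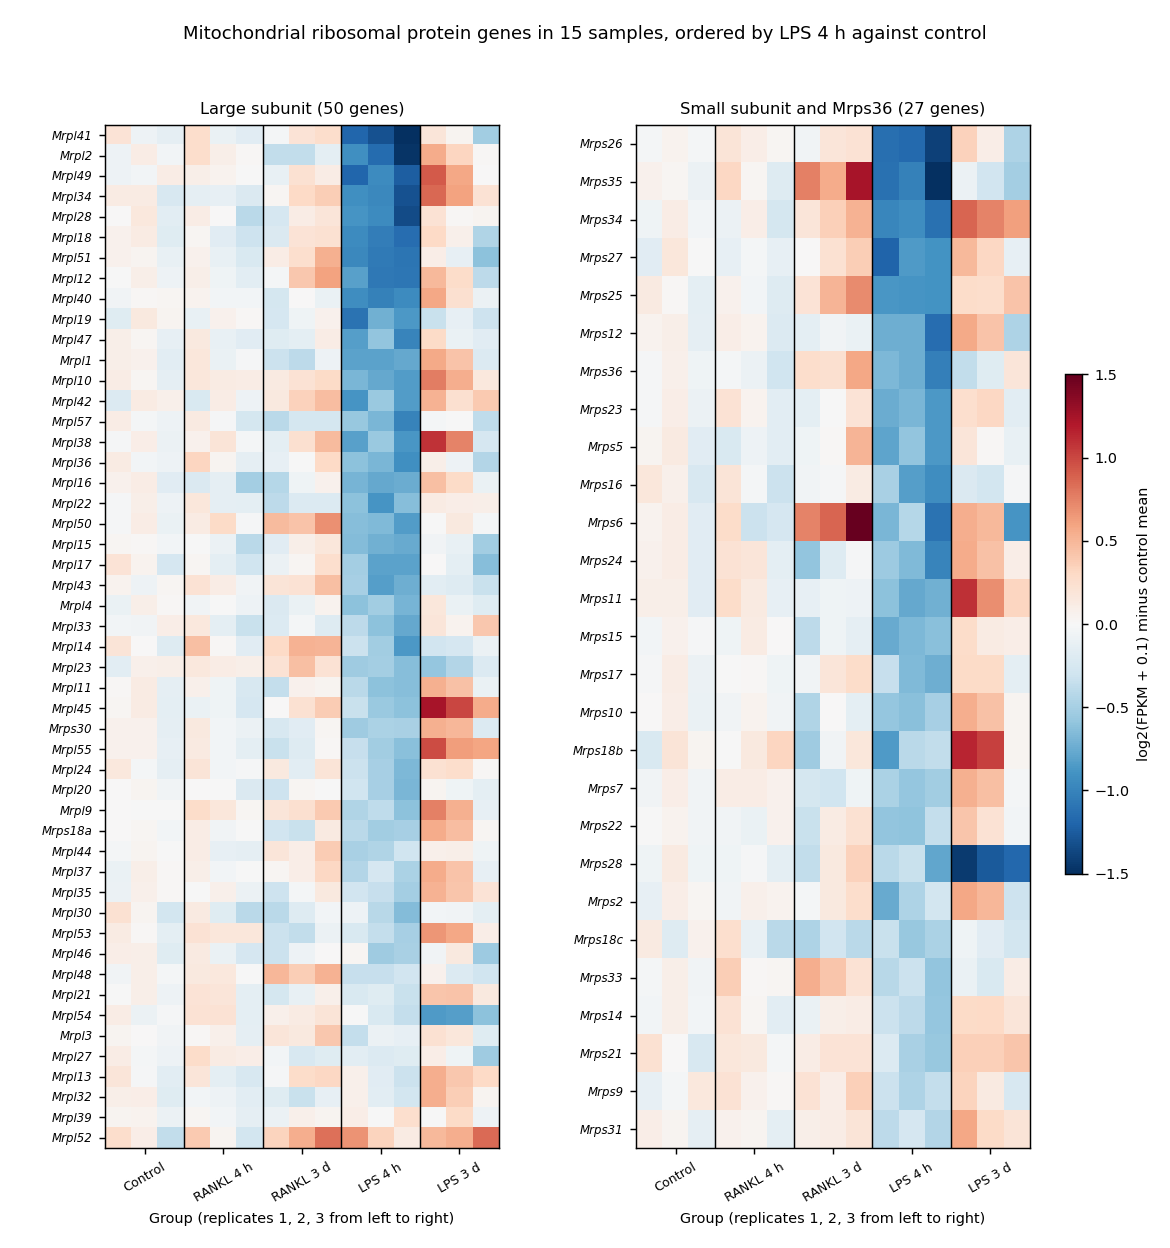
Heat map of the 77 members (rows) in 15 samples (columns, 3 per group), with colour for log2(FPKM + 0.1) minus the control mean, saturated at 1.5 either way, and rows ordered by the change in LPS 4 h. Most rows are blue in the LPS 4 h columns, where 38 members (49.4%) fell, beside 41% of all tested genes. Once samples were centred on their median gene, 4 fell and 2 rose, beside 14.3% and 17.4% of tested genes. *Mrps6* and *Mrps35* are red in RANKL 3 d and *Mrps28* and *Mrpl54* blue in LPS 3 d.

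Each comparison was made with limma over the 11743 genes that averaged 0.1 FPKM or more, on log2(FPKM + 0.1), which understates the change of low genes. A gene is called changed at a fold above 1.5 or below 0.66 with an unadjusted p under 0.05, and Benjamini-Hochberg adjusted p-values over all tested genes are given beside. The 4 comparisons with control share the control samples.

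RANKL for 4 hours left no call among the members. None of the 77 was changed, against 1.21% of all tested genes called higher and 1.35% called lower, and none had an unadjusted p under 0.05, nor was any called with voom on the recovered fragments. By adjusted p under 0.05 without a fold threshold there was also none, against 0.111% of tested genes higher and 0.00852% lower. These p-values come from the fit without a replicate block, although same-numbered samples of RANKL 4 h and control deviated together (correlations 0.707 to 0.842). P-values from a fit with the block are not given here. The log2 fold changes of the members lay between -0.29 and 0.19 with a median of -0.02. The largest positive value was that of *Mrpl53*, at 0.19 on the log2 scale.

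LPS for 4 hours gave the broadest difference, and in one direction. Of the 77 members 38 fell and none rose, against 41% of tested genes called lower and 8.75% called higher. By adjusted p without a fold threshold 65 members were lower and none higher, against 50.1% and 9.72% of tested genes. For 69 members all 3 LPS 4 h values lay below all 3 control values, as they did for 56.2% of tested genes. The members' median log2 fold change was -0.59 (quartiles -0.77 and -0.44), beside -0.52 for all tested genes. Measured against the median gene, by centring each sample on it, the members' median became -0.02, and 4 members (*Mrpl2*, *Mrpl41*, *Mrps26*, *Mrps35*) were lower and 2 (*Mrpl39*, *Mrpl52*) higher, against 14.3% and 17.4% of tested genes. The 38 members make up 49.4% of the family, near the share of all genes, and the quartiles of the members lie inside the wider quartiles of all genes, -0.94 and -0.09. Of 9 markers of cycling cells 6 also fell in LPS 4 h, and their part in this result was not tested. The plot of changes against control sets these distributions side by side.

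**Figure D2:**
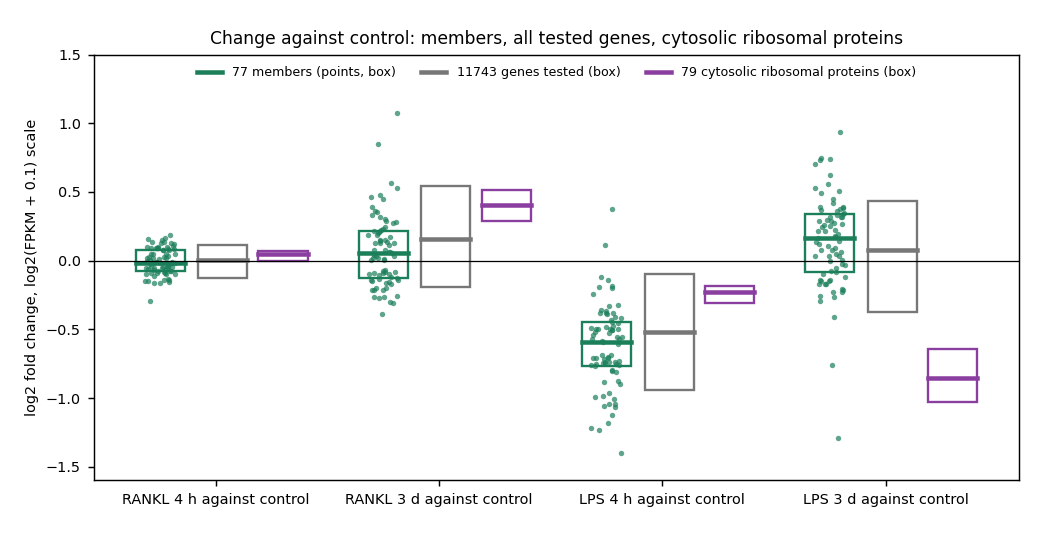
Log2 fold changes against control (y axis, log2(FPKM + 0.1) scale) in the 4 stimulated groups, with points for the 77 members and boxes for the quartiles and median of the members, of all 11743 tested genes and of 79 cytosolic ribosomal proteins. In LPS 4 h the members' median of -0.59 lies near that of all genes, -0.52, and in LPS 3 d the members' median is 0.16 while that of the cytosolic ribosomal proteins is -0.85.

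The largest fall in LPS 4 h was that of *Mrpl41*, a mitochondria-specific protein of the large subunit. Its level was 8.84, 7.26 and 6.95 FPKM in control and 3.30, 3.02 and 2.30 in LPS 4 h. The groups did not overlap, and the log2 fold change was -1.40 (SE 0.20, limma adjusted p = 5.6e-05). *Mrps26*, a mitochondria-specific protein of the small subunit, stood at 32.8, 34.7 and 32.8 FPKM in control and at 15.2, 14.8 and 12.6 in LPS 4 h. Every LPS 4 h value was less than the lowest control value, with a log2 fold change of -1.23 (SE 0.16, limma adjusted p = 3.1e-05). *Mrps35*, also specific to the mitochondrial small subunit, went from 14.05, 13.8 and 12.6 FPKM to 6.14, 6.63 and 4.63, a log2 fold change of -1.22 (SE 0.19, limma adjusted p = 1.2e-04). *Mrpl2*, the counterpart of the bacterial protein L2 next to the peptidyl transferase centre, measured 33.9, 38.8 and 34.97 FPKM in control and 18.9, 16.0 and 12.9 in LPS 4 h. Its log2 fold change was -1.18 (SE 0.15, limma adjusted p = 2.6e-05). These 4 were also the ones called lower against the median gene. The 3 members of lowest level moved with the majority, *Mrps25* by -0.88, *Mrpl1* by -0.79 and *Mrpl15* by -0.71 on the log2 scale.

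Among the members not called in LPS 4 h, *Mrpl52* measured 79.2, 70.9 and 51.3 FPKM in control and 106, 83.2 and 71.9 in LPS 4 h, with a log2 fold change of 0.38 (SE 0.21, limma adjusted p = 0.13). The groups overlapped. *Mrpl39*, a mitochondria-specific protein of the large subunit, was at 12.4, 12.4 and 11.2 FPKM in control and 12.8, 11.99 and 14.3 in LPS 4 h, a log2 fold change of 0.12 (SE 0.12, limma adjusted p = 0.42). These were the only members with a positive value in this comparison. Among the 38 that fell, *Mrps6* had the weakest support, with a log2 fold change of -0.74 (SE 0.34) and an adjusted p of 0.076 in limma.

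RANKL for 3 days raised 2 members and lowered none, against 20.2% of tested genes called higher and 9.04% called lower. The median of the tested genes lay at 0.16 in this comparison. After centring each sample on its median gene, these 2 were still called higher (*Mrps6* with an adjusted p of 0.065 in limma) and *Mrps18c* was called lower, against 12.7% and 14.2% of tested genes. By adjusted p without a fold threshold 7 members were higher and none lower, against 20.8% and 9.85% of tested genes. The 7 were *Mrps6*, *Mrps35*, *Mrpl50*, *Mrps25*, *Mrpl48*, *Mrps33* and *Mrps34*. The members' median log2 fold change was 0.06, and -0.16 after centring on the median gene, so the direction of the family as a whole depended on the scaling. Without control replicate 2 the count was 4 members higher (also *Mrpl50* and *Mrpl52*) and none lower, against 19.6% and 9.02% of tested genes. Without RANKL 3 d replicate 1 it was 4 (also *Mrps25* and *Mrpl52*) and none, against 17.9% and 9.93%. With FPKM rescaled to equal sums it was 5 and none, against 25.4% and 7.52%. Markers of other cells moved in RANKL 3 d as well. All 4 granulocyte precursor markers fell, from summed levels of 639 to 1035 FPKM in control to 11.03 to 32.6. So did 3 of 4 B cell markers and the 2 tested erythroid markers, while 9 of 12 stromal and 4 of 9 cycling markers rose and 1 cycling marker fell. The part of these markers in the RANKL 3 d results was not tested.

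*Mrps6*, the counterpart of bacterial S6 in the small subunit, stood at 8.06, 8.42 and 6.92 FPKM in control and at 13.04, 14.3 and 23.8 in RANKL 3 d. All 3 RANKL 3 d values were above control, replicate 3 most of all, and the log2 fold change was 1.07 (SE 0.34, limma adjusted p = 0.029). *Mrps6* shares exon bases on the same strand with *Slc5a3*, a sodium and myo-inositol cotransporter, and with the unnamed gene model *Gm49711*, so its counts may include fragments of that gene and are uncertain. *Slc5a3* itself was listed at 0.273, 0.567 and 0.444 FPKM in control and 1.46, 1.20 and 2.23 in RANKL 3 d, a log2 fold change of 1.71 (SE 0.27, limma adjusted p = 4.9e-04). *Mrps35* measured 22.9, 19.8 and 31.8 FPKM in RANKL 3 d against 14.05, 13.8 and 12.6 in control. Its log2 fold change was 0.85 (SE 0.19, limma adjusted p = 0.0051), and no other annotated gene shares its exon bases. In both genes replicate 3 of RANKL 3 d was the highest, as it was for 60 of the 77 members, while replicate 1 was the lowest for 60. The summed osteoclast markers of these libraries were 3018, 1645 and 5307 FPKM for replicates 1, 2 and 3, and their part in the spread of the members was not tested.

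LPS for 3 days raised 6 members and lowered 2, against 14.9% and 16.1% of tested genes. Against the median gene 5 were higher and 2 lower, beside 11.8% and 18.1% of tested genes. By adjusted p alone 15 were higher and 3 lower, against 18.2% and 17.6%. Without LPS 3 d replicate 3, the library that stood apart, these counts were 29 and 3, against 3062 and 2190 of the 11743 tested genes. By fold and unadjusted p 11 were then higher and 2 lower, against 19.6% and 17.1% of tested genes. Those added were *Mrpl9*, *Mrpl10*, *Mrpl34*, *Mrpl38*, *Mrpl49* and *Mrpl53*, while *Mrpl52* was no longer called. Replicate 3 had the lowest of the 3 LPS 3 d values for 63 of the 77 members and the highest for 11. All 9 markers of cycling cells fell in LPS 3 d, with summed levels of 156 to 174 FPKM against 384 to 587 in control. So did the 4 markers of granulocyte precursors, the 4 of B cells and the 2 tested markers of erythroid cells (1 of these 2 without replicate 3). The part of these markers in the results was not tested.

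Of the members that rose, *Mrpl45*, which ties the large subunit to the inner membrane, went from 15.7, 16.7 and 13.8 FPKM in control to 36.4, 31.0 and 22.6 in LPS 3 d. Its groups did not overlap, with a log2 fold change of 0.93 (SE 0.16, limma adjusted p = 6.9e-04), and of 1.12 without LPS 3 d replicate 3. *Mrps34*, a mitochondria-specific protein of the small subunit, measured 26.7, 30.3 and 27.1 FPKM in control and 51.3, 46.9 and 42.9 in LPS 3 d, a log2 fold change of 0.74 (SE 0.12, limma adjusted p = 4.7e-04). It shares exon bases with *Nme3* on the same strand and with *Mapk8ip3* on the other, whose log2 fold changes in LPS 3 d were 0.05 and 0.99, so its value is uncertain. *Mrpl55*, specific to the large subunit of mitochondria, stood at 18.8, 18.9 and 16.5 FPKM in control and at 35.8, 28.0 and 27.3 in LPS 3 d, a log2 fold change of 0.74 (SE 0.14, limma adjusted p = 0.0011). *Mrps11*, the counterpart of bacterial S11, measured 16.3, 16.4 and 13.7 FPKM in control and 33.0, 24.9 and 19.2 in LPS 3 d, a log2 fold change of 0.70 (SE 0.17, limma adjusted p = 0.0053), and was not called without LPS 3 d replicate 1. It overlaps *Mrpl46* on the opposite strand, and since a strand setting was not given in the sources used here, their fragments cannot be told apart with certainty where they overlap. *Mrpl46* measured 17.2, 19.8 and 12.1 FPKM in LPS 3 d and 19.0, 18.9 and 15.7 in control, a log2 fold change of -0.15 (adjusted p = 0.58 in limma). The log2 fold changes of *Mrps34*, *Mrpl55* and *Mrps11* were 0.81, 0.81 and 0.89 without LPS 3 d replicate 3.

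The 2 members that fell in LPS 3 d did so in every replicate. *Mrps28*, a small subunit protein, was at 21.5, 24.6 and 21.4 FPKM in control and at 8.26, 9.35 and 9.85 in LPS 3 d. With 127 to 142 fragments per LPS 3 d sample, the log2 fold change was -1.29 (SE 0.17, limma adjusted p = 9.3e-05). In RANKL 3 d the same gene measured 17.3, 24.8 and 28.5 FPKM, across the control range, and in LPS 4 h 16.9, 17.8 and 13.1. *Mrpl54*, a mitochondria-specific large subunit protein, went from 54.3, 47.1 and 49.6 FPKM to 27.9, 28.4 and 32.8, a log2 fold change of -0.76 (SE 0.12, limma adjusted p = 4.5e-04). The values were -1.34 for *Mrps28* and -0.83 for *Mrpl54* without LPS 3 d replicate 3. Neither gene shares exon bases with another annotated gene. The plot of 12 members by sample shows these levels together.

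**Figure D3:**
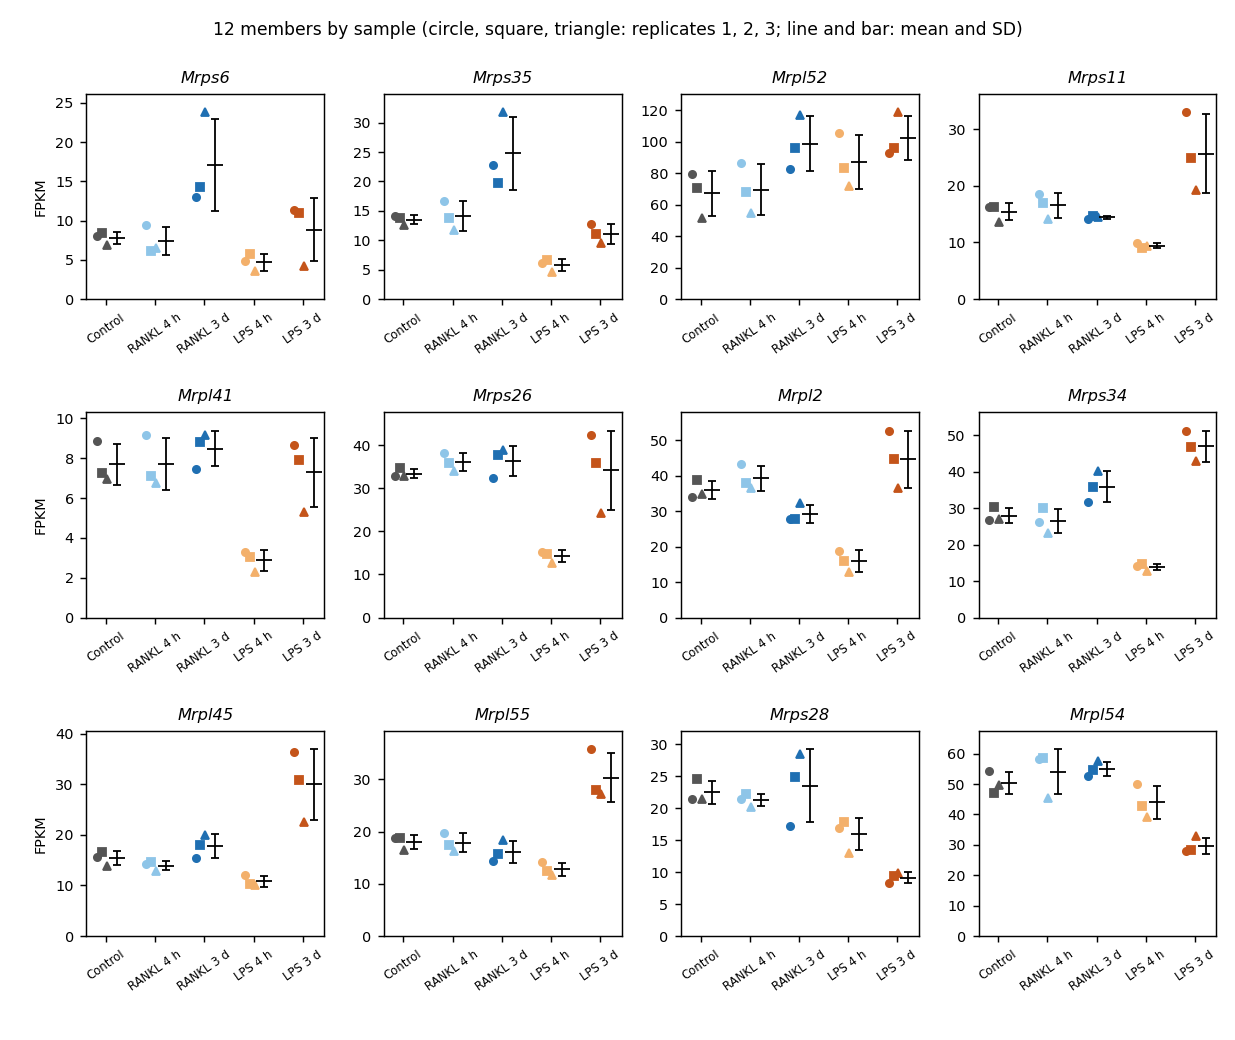
FPKM (y axis) of 12 members in the 5 groups, with circle, square and triangle for replicates 1, 2 and 3 and a line and bar for the mean and SD. *Mrpl41*, *Mrps26*, *Mrpl2* and *Mrps35* are lowest in LPS 4 h, *Mrps6* and *Mrps35* highest in RANKL 3 d, and *Mrps28* lowest in LPS 3 d at 8.26 to 9.85 FPKM.

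The direct comparison of the times shows how far the LPS groups lay apart. Between LPS 3 d and LPS 4 h 53 members were higher at 3 days and 1 lower, against 45% and 14.3% of tested genes. The members' median was 0.78 on the log2 scale, beside 0.52 for all tested genes, and 0.13 after centring on the median gene. After that centring 11 were higher and 4 lower, against 19.5% and 28.6% of tested genes. Without LPS 3 d replicate 3 the counts were 58 higher and 2 lower, against 46.5% and 15.4%. With all libraries and without centring, the largest difference was in *Mrps34*, which measured 14.2, 14.6 and 12.8 FPKM at 4 hours, with a log2 difference to 3 days of 1.75 (SE 0.12, limma adjusted p = 1.1e-07). Without LPS 3 d replicate 3 *Mrpl49* (1.88) lay above *Mrps34* (1.82), and after centring *Mrps28* (-1.43) and *Mrpl54* (-1.21) differed by more than *Mrps34* (1.104). *Mrps28* was the member lower at 3 days, with a log2 difference of -0.78 (SE 0.17, limma adjusted p = 9.6e-04). Between RANKL 3 d and RANKL 4 h 2 members were higher and none lower, against 20.1% and 8.24% of tested genes. They were *Mrps6*, with a log2 difference of 1.17 (SE 0.34), and *Mrps35*, with 0.80 (SE 0.19). By adjusted p alone 8 were higher and 1 lower, against 20.4% and 9.13%, and with FPKM rescaled to equal sums 5 were higher and none lower, against 25.3% and 6.66%. After centring on the median gene 1 was higher (*Mrps6*) and 2 lower (*Mrpl2*, *Mrpl53*), against 12.4% and 13.6% of tested genes.

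Set directly against LPS 4 h, RANKL 4 h had 38 members higher and none lower, beside 42.5% and 9.31% of tested genes. By adjusted p alone 67 were higher and none lower, beside 50.8% and 10.5%. Centred on the median gene, 5 were higher and 2 lower, beside 14.7% and 17.6%. At 3 days, with all libraries, the direct comparison called members in both directions, at 9.1% and 7.8% of the family. Of the 77 members 7 were higher in RANKL 3 d and 6 higher in LPS 3 d, against 25.1% and 13.8% of tested genes. By adjusted p alone the counts were 12 and 19, against 27.6% and 17.9%. Without LPS 3 d replicate 3 these became 10 and 29, against 3314 and 2807 of the 11743 tested genes. By fold and unadjusted p the counts were 6 and 15 without LPS 3 d replicate 3, against 26% and 17.7%. Centred on the median gene, with all libraries, they were 4 and 12, against 20.7% and 18.3%. Higher in RANKL 3 d were *Mrps28* (log2 difference 1.33, SE 0.17), *Mrps35* (1.14, SE 0.19), *Mrps6* (1.02, SE 0.34), *Mrpl54* (0.89, SE 0.12), *Mrpl23*, *Mrpl14* and *Mrpl48*. Higher in LPS 3 d were *Mrpl55* (-0.91, SE 0.14), *Mrps18b* (-0.88, SE 0.26), *Mrps11* (-0.79, SE 0.17), *Mrpl45* (-0.73, SE 0.16), *Mrpl53* and *Mrps24*. All 13 had an adjusted p of at most 0.025 in limma. Without LPS 3 d replicate 3, where *Mrps6* measured 4.17 FPKM against 11.4 and 10.95 in the other libraries of its group, *Mrps6* (0.55, limma adjusted p = 0.096) and *Mrpl48* were no longer called and *Mrps36* was. The values of *Mrps18b* overlapped between the groups, at 13.8, 19.3 and 22.6 FPKM in RANKL 3 d and 44.2, 41.0 and 20.7 in LPS 3 d.

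**Figure D4:**
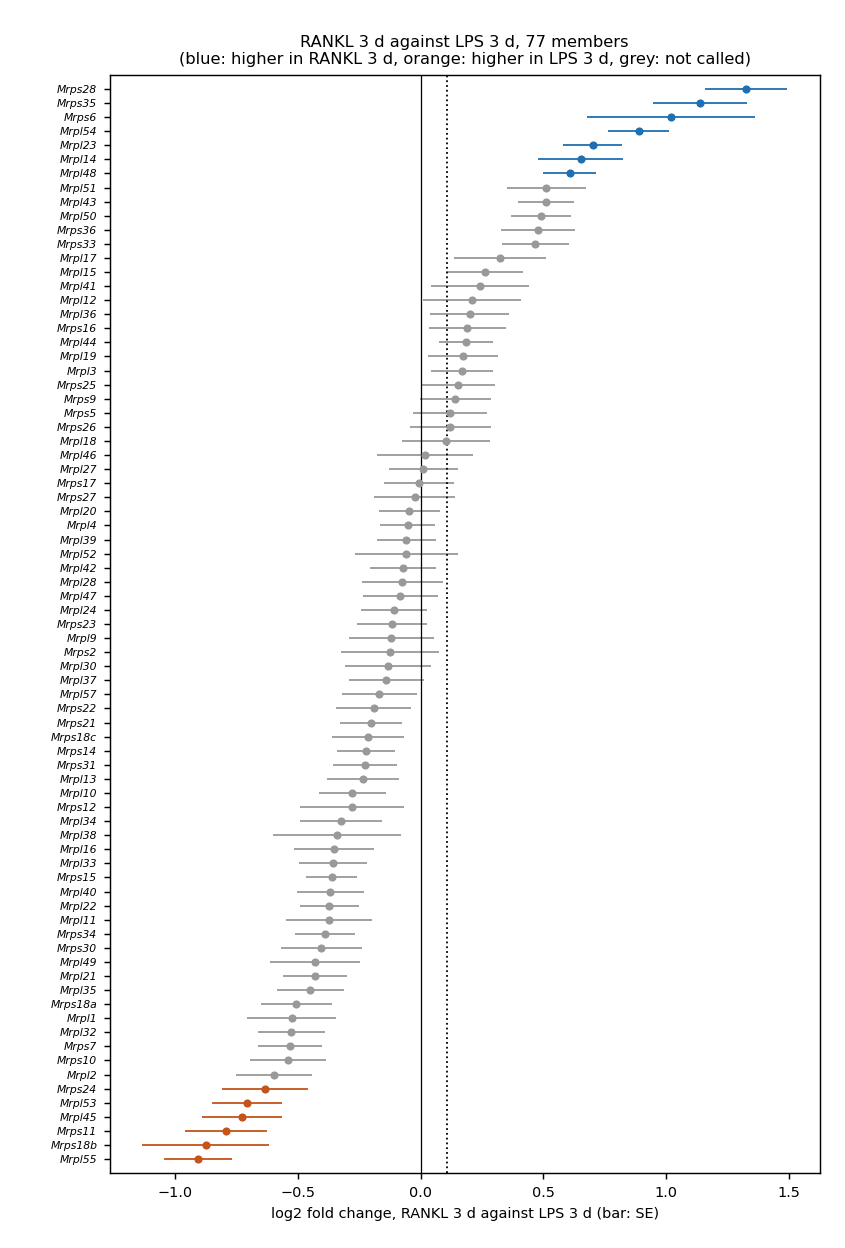
The 77 members (y axis) ordered by the log2 fold change of RANKL 3 d against LPS 3 d (x axis, bar for the SE), with blue for the 7 called higher in RANKL 3 d, orange for the 6 called higher in LPS 3 d and grey for the rest. Of all tested genes 25.1% were called higher in RANKL 3 d and 13.8% higher in LPS 3 d. The dotted line marks the median of all tested genes at 0.11, and the members spread to both sides of 0, from -0.91 to 1.33.

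Proteins at the working sites of the ribosome are given next by role. *Mrpl12*, the stalk protein that recruits translation factors, measured 55.3, 59.2 and 52.8 FPKM in control and 31.6, 26.5 and 26.3 in LPS 4 h, a log2 fold change of -0.99 (SE 0.20, limma adjusted p = 8.3e-04). Its values in RANKL 3 d were 54.7, 73.9 and 85.0, and the log2 fold change of 0.33 did not pass (adjusted p = 0.23). *Mrpl3*, another protein near the peptidyl transferase centre, stood at 23.5, 22.9 and 22 FPKM in control and 17.7, 21.5 and 20.9 in LPS 4 h, a difference of -0.19 (SE 0.13, limma adjusted p = 0.21). *Mrpl11*, at the base of the stalk, had a log2 value of -0.55 in LPS 4 h, below the fold threshold. *Mrps12*, at the decoding centre, fell by 0.87 on the log2 scale (SE 0.21, limma adjusted p = 0.0031), from 23.4, 23.8 and 20.4 FPKM to 13.5, 13.5 and 10.1. *Mrps27*, which has pentatricopeptide repeats, fell by 0.98 (SE 0.17). *Mrps7*, *Mrps2* and *Mrpl37* had log2 values of -0.52, -0.50 and -0.39 in LPS 4 h and 0.32, 0.25 and 0.29 in LPS 3 d, none of them past the fold threshold.

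The 3 *Mrps18* genes are related to 1 bacterial protein and differ in place, *Mrps18a* in the large subunit and *Mrps18b* and *Mrps18c* in the small subunit. In the counts by homolog only *Mrps18c* was placed with the bacterial homologs. *Mrps18a* and *Mrps18b* were counted there as specific to mitochondria. *Mrps18a* stood at 53.2, 54.0 and 51.3 FPKM in control and 77.5, 72.6 and 53.8 in LPS 3 d, a log2 fold change of 0.35 (SE 0.14, limma adjusted p = 0.076). *Mrps18b* measured 17.1, 22.9 and 20.6 FPKM in control and rose in LPS 3 d by 0.74 on the log2 scale (SE 0.26, limma adjusted p = 0.040), although replicate 3, at 20.7, lay within the control range. Without that library its log2 fold change was 1.08 (limma adjusted p = 0.0012). *Mrps18c* stood at 77.4, 61.8 and 73.8 FPKM in control and at 51.2, 58.0 and 53.2 in RANKL 3 d. These groups did not overlap, but the log2 fold change of -0.39 (SE 0.15, limma adjusted p = 0.061) was within the fold threshold.

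By subunit, against 41% of all tested genes, the counts in LPS 4 h were 24 of 50 lower for the large and 13 of 26 for the small subunit, with median log2 fold changes of -0.58 and -0.63, and *Mrps36* fell as well, by 0.81 on the log2 scale. Members with a bacterial homolog had 15 of 29 lower in the large and 7 of 16 in the small subunit, and those specific to mitochondria 9 of 21 and 6 of 10. After centring on the median gene 2 members of each subunit were lower, against 14.3% of tested genes. The large subunit also had 2 higher (*Mrpl39*, *Mrpl52*), against 17.4%. In RANKL 3 d the 2 members that rose were of the small subunit (7.7% of its 26), beside 20.2% of tested genes. In LPS 3 d 3 of those that rose belonged to each subunit (8 to the large and 3 to the small without replicate 3). The shares of tested genes higher there were 14.9% and, without replicate 3, 19.6%. Members with NRF1, ETS or YY1 letters in the promoter window had a median log2 fold change of -0.59 in LPS 4 h (18 of 37 lower), and those without, -0.57 (14 of 31 lower), also beside 41% of tested genes.

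Other genes of mitochondrial translation were counted in the same fit. There 41% of all tested genes were called lower and 8.75% higher in LPS 4 h, and 16.1% lower and 14.9% higher in LPS 3 d. Without LPS 3 d replicate 3 the latter shares were 17.1% and 19.6%. Counts after centring on the median gene, which left 4 members lower and 2 higher in LPS 4 h, are not given for these lists. Of 6 mitoribosomal proteins that carry other symbols (*Dap3*, *Ptcd3*, *Aurkaip1*, *Chchd1*, *Gadd45gip1*, *Ict1*) all 6 were lower in LPS 4 h and none was changed in RANKL 3 d or LPS 3 d (1 was higher in LPS 3 d without replicate 3). *Gadd45gip1* fell most, from 13.9 ± 0.593 to 7.41 ± 0.472 FPKM (SD, n = 3), by 0.90 on the log2 scale. Of 25 assembly factors, which process and fold the ribosomal RNA, 21 were lower in LPS 4 h and none higher, with a median of -0.86, and *Rpusd3*, a pseudouridine synthase, had the largest fall at -2.15 (SE 0.35). In LPS 3 d 5 of the 25 were higher and 1 lower, and without replicate 3 10 were higher and none lower. Of 14 translation factors 11 were lower in LPS 4 h (median -0.89), led by *Guf1*, the back-translocase, at -1.43 (SE 0.17). Of 17 enzymes that charge mitochondrial tRNAs 14 were lower in LPS 4 h, with a median of -1.19, and *Gatc*, a subunit of the glutamyl-tRNA amidotransferase, went from 11.6 ± 1.31 to 3.13 ± 0.154 FPKM. Of 4 genes of mitochondrial transcription 2 were lower, *Polrmt*, the RNA polymerase of mitochondria, by 1.26 on the log2 scale (SE 0.17), and *Tfb2m*. The medians of the assembly, translation factor and tRNA lists in LPS 4 h were further below 0 than those of the members and of all tested genes, and these differences were not tested.

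In RANKL 3 d few of these genes moved, beside 20.2% of all tested genes called higher and 9.04% called lower. *Mettl15*, which methylates the small subunit RNA, was the assembly factor with the largest change, from 0.873 ± 0.169 to 2.21 ± 0.270 FPKM (SD, n = 3), a log2 fold change of 1.26 (SE 0.24, limma adjusted p = 0.0018). *Tfb2m*, a transcription factor of mitochondria, rose by 0.83 (SE 0.19) and *Nars2*, the asparaginyl-tRNA synthetase, by 0.72 (SE 0.18). The translation factor list held 1 call, *Slirp*, which binds mitochondrial messages, at -0.61 (SE 0.14). Among regulators of nuclear genes for mitochondria *Ppargc1b*, the coactivator PGC-1beta, went from 0.446 ± 0.0784 to 3.14 ± 1.30 FPKM, a log2 fold change of 2.49 (SE 0.33, limma adjusted p = 1.6e-04). The same gene rose by 1.23 in LPS 4 h (SE 0.33). Of the 7 regulators, 3 were higher and none lower in RANKL 3 d.

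Beside the mitochondrial ribosome, the genes of the cytosolic ribosome and of the respiratory chain gave other counts in the same comparisons. Of 79 cytosolic ribosomal proteins 1 was lower in LPS 4 h and none higher, while 62 were lower in LPS 3 d and none higher, with medians of -0.23 and -0.85. The 77 members had 38 lower in LPS 4 h and 2 lower in LPS 3 d, with medians of -0.59 and 0.16. Of all tested genes 41% were lower in LPS 4 h and 16.1% in LPS 3 d, so the members' 49.4% in LPS 4 h was near the share of all genes. The shares of tested genes were 20.2% higher and 9.04% lower in RANKL 3 d, and 14.9% higher in LPS 3 d. Directly against LPS 3 d, 25.1% were higher in RANKL 3 d. In RANKL 3 d 8 cytosolic ribosomal proteins were higher (median 0.40) against 2 members (median 0.06), and in the direct comparison of RANKL 3 d with LPS 3 d 75 of 79 were higher (median 1.25) against 7 of 77 (median -0.12). Of 68 genes of respiratory complexes I, IV and V, which contain the products of mitochondrial translation, 11 were lower in LPS 4 h (median -0.39), 12 higher and 2 lower in RANKL 3 d (median 0.32), and 2 higher and 5 lower in LPS 3 d (median -0.05). Without LPS 3 d replicate 3, 70 cytosolic ribosomal proteins (median -1.07), 2 members (median 0.28) and 6 genes of the complexes (median -0.09) were lower in LPS 3 d, and 75 cytosolic ribosomal proteins were higher in RANKL 3 d than in LPS 3 d (median 1.44). The shares of all tested genes were then 17.1% and 26%. The groups of genes are not independent samples, and the differences between these lists were not tested. The plot of lists gives medians, quartiles and counts.

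**Figure D5:**
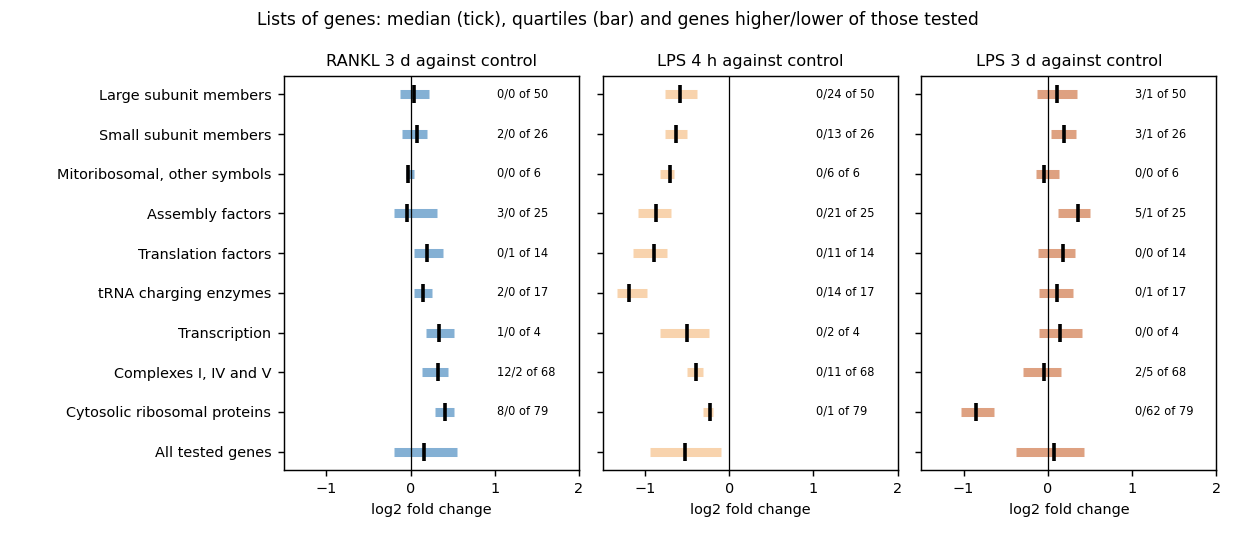
Median (tick) and quartiles (bar) of the log2 fold change (x axis) in RANKL 3 d, LPS 4 h and LPS 3 d against control for the subunits, for other lists of mitochondrial translation, for respiratory complexes, cytosolic ribosomal proteins and all tested genes (y axis), with the number higher and lower of those tested. In LPS 4 h the tRNA enzymes are lowest with a median of -1.19, and in LPS 3 d the cytosolic ribosomal proteins with -0.85, while the large subunit members lie at 0.11 and the small subunit members at 0.19. After centring on the median gene the members' median in LPS 4 h was -0.02.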

How the data were processed

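Expression was measured by RNA-seq in 15 mouse BMDM samples, grouped by their labels. The authors deposited a table of FPKM for each gene in each sample, made with StringTie and Ballgown by their methods. The submitters' processing notes name StringTie and the builds GRCm38.p4 and mm10, and the labels a SMARTer kit. The aligner and the strand setting are not given in the sources used here. One incomplete entry at the end of the table was not used, and genes after it were not analysed here.

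Each gene's FPKM divided evenly by the worth of 1 fragment, so fragments were recovered for 14485 of the 14485 genes above 0 in at least 3 samples, within 0.01 of a whole fragment. Intervals were not computed from them, and PCR copies make fragments less than independent.

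The 11743 genes that averaged 0.1 FPKM or more were put on the log2(FPKM + 0.1) scale, and all 5 groups entered 1 linear model in limma 3.58.1 under R 4.3.3, with a trend in eBayes. Scripts were tested on simulated data. Alternatives were other pseudocounts, filters, scalings and thresholds, the fit without trend or with only 2 groups, a replicate block, each replicate left out, and, chosen after seeing the data, voom on the fragments. Same-numbered replicates correlated in their deviations from the group means over 9486 genes above 0.1 in every pair for RANKL 4 h (0.707 to 0.842), RANKL 3 d (0.136 to 0.318) and LPS 4 h (0.44 to 0.624) with control, and for RANKL 4 h with LPS 4 h and with RANKL 3 d, so the replicate numbers may pair these samples.

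Members and lists were chosen with earlier results of these data known. Members given with values are, for each comparison with control, up to 4 largest rises and 4 largest falls among those changed without overlap, the 3 highest and 3 lowest in mean, the 3 with the largest spread of group means (*Mrps35*, *Mrps34*, *Mrps6*), and 12 chosen by role. *Mrpl39*, *Mrpl46*, members named only in counts and *Tfb2m* in LPS 4 h were added after their values were seen. From other lists 1 gene per list was named in RANKL 3 d and LPS 4 h. Positions are from GENCODE M21 and promoters from RefSeq, with Python 3.11.15 (numpy 2.4.6, pandas 2.3.3) and matplotlib 3.10.9.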

Additional observations from a re-analysis of the deposited data

Results flagged for a closer look

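A difference between the 4-hour and 3-day effects of the same stimulus marked these results. For RANKL, 2 members differed between 3 days and 4 hours in the direct contrast, *Mrps6* by 1.17 and *Mrps35* by 0.80 on the log2 scale, both higher at 3 days, beside 20.1% of tested genes higher and 8.24% lower. For LPS, 54 members differed, with *Mrps28* lower at 3 days than at 4 hours, at -0.78, and 53 others higher, beside 14.3% of tested genes lower and 45% higher. Centred on the median gene, 11 members were higher and 4 lower. The control samples cancel in these contrasts, and length of culture and length of stimulation cannot be told apart in them.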

How the results depend on the processing

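The number of members changed out of 77 stayed within 1.5 times the reported count under most alternatives (127 of 144 values). No named member reversed in a comparison where it was called. Some uncalled values did change sign, such as that of *Mrpl3* in LPS 4 h. There centring on the median gene moved the members' median log2 fold change from -0.59 to -0.02. By adjusted p under 0.05 without a fold threshold the counts were 7 for RANKL 3 d, 65 for LPS 4 h and 18 for LPS 3 d against control, 67 for RANKL 4 h against LPS 4 h, 31 for RANKL 3 d against LPS 3 d and 9 for RANKL 3 d against RANKL 4 h, each with its share of all tested genes in the text above. With FPKM rescaled to equal sums they were 5 for RANKL 3 d against control and 5 against RANKL 4 h. Centred on the median gene, they were 6 for LPS 4 h against control, 7 for RANKL 4 h against LPS 4 h and 15 for LPS 3 d against LPS 4 h. The cause of these shifts was not tested. Leaving out 1 replicate at a time gave 2 to 4 for RANKL 3 d, 37 to 41 for LPS 4 h and 6 to 13 for LPS 3 d against control, 34 to 42 for RANKL 4 h against LPS 4 h, 11 to 21 for RANKL 3 d against LPS 3 d, 2 to 4 for RANKL 3 d against RANKL 4 h and 50 to 60 for LPS 3 d against LPS 4 h. The highest values, 13 and 21, came without LPS 3 d replicate 3, and the 4 in RANKL 3 d against RANKL 4 h without RANKL 4 h or RANKL 3 d replicate 1. With a replicate block the counts against control were 0, 2, 38 and 8 for RANKL 4 h, RANKL 3 d, LPS 4 h and LPS 3 d. The block changed no count of members. Shares of all tested genes for the block and for most left-out replicates are not given here. With all libraries 41% of tested genes were lower in LPS 4 h than in control, and 45% were higher in LPS 3 d than in LPS 4 h. In this balanced design a block leaves the log2 fold changes as they are. All members lay between -0.29 and 0.19 in RANKL 4 h, inside the fold threshold, so no call was possible there with or without the block. In the comparisons of LPS 3 d with control, RANKL 3 d and LPS 4 h the deviations of same-numbered samples correlated at only -0.229 to 0.184. LPS 3 d replicate 3 stood apart and the labels do not settle pairing, so these values cannot decide whether the samples are paired. *Mrps11* was not called in LPS 3 d without LPS 3 d replicate 1 (log2 fold change 0.51), and *Mrpl52* and *Mrps18b* each lost their call under 3 alternatives there. Depth limits *Mrps6* most, with 59 fragments in its lowest sample, the fewest of any member.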
